A study of Mus musculus with 4 samples.

Results

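Monocytes and macrophages are followed here through 9 genes chosen by symbol, Csf1r, Ccr2, Fcgr1, Emr1, Ly6c2, Cd68, Lyz1, Lyz2 and F13a1, which are 9 of the 43629 gene identifiers counted in each library. Their levels were measured by RNA-seq in primary mouse hematopoietic stem and progenitor cells (HSPCs), the CD117+ cells from which blood lineages arise, 48 h after delivery of Cre recombinase or of an empty vector. Both groups came from C57Bl/6 mice with the Chaf1b fl/fl genotype, so that the controls carried the floxed alleles too, and both were cultured with SCF, IL-3 and IL-6, infected with a retrovirus and sorted for eGFP. The MIGR1 group, with 2 libraries, received the empty MIGR1 vector, and the dChaf1b group, also with 2 libraries, received MIGR1-Cre, which deletes Chaf1b. The question was whether loss of CHAF1B, a subunit of the histone chaperone CAF-1, changed the level of these genes in HSPCs within that time. The labels do not say whether replicates came from separate mice, and the eGFP sort selects infected cells, not cells in which both alleles were lost.

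Classical monocytes arise in the bone marrow from granulocyte-macrophage progenitors, leave it through the chemokine receptor CCR2, carry LY6C on their surface and can mature into macrophages in tissues. Survival and differentiation along this path depend on CSF1R, the receptor for CSF1 and IL-34, and on the transcription factors PU.1 (encoded by Spi1), IRF8 and KLF4. Lysozyme, the Fc receptor CD64, the surface protein F4/80 and the lysosomal glycoprotein CD68 appear or increase as the cells mature. Some of these products serve to recognize, take up or digest particles.

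Between 18468637 and 25409926 reads were counted on genes per library, so that 3 counts correspond to at most 0.162 CPM, the counts of a gene scaled to the total counted on genes, and all 9 genes exceeded this floor in every library. Chaf1b itself had 80.3 and 57.9 CPM in the MIGR1 libraries and 16.1 and 17.9 CPM in the dChaf1b libraries, a log2 fold change of -2.01 ± 0.25 (SE; edgeR quasi-likelihood test, adjusted p = 0.0330), counted over the whole gene and not over the deleted part alone. Replicate 1 of dChaf1b stood apart from the other libraries. Its summed level of 25 interferon-stimulated genes was 3173 CPM, against 436 to 552 CPM elsewhere. It had 7905 counts of Xist and 3 counts over 4 Y-linked genes, against 23 to 33 and 5805 to 7771 counts in the other 3 libraries. These are the counts of female cells in that library and of male cells in the other 3. The part of sex in the levels of the 9 genes was not tested. The sorted population was not purely of progenitors. Kit (95.6 to 124 CPM) was present in all 4 libraries, but so were 8 neutrophil marker genes with 50128 to 69592 CPM in sum, while 0 of 6 T and NK cell markers passed the expression filter (0.275 to 0.880 CPM in sum). In such bulk libraries, a larger share of cells of a type and more RNA per cell cannot be told apart.

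Per kilobase of exon, Lyz2 was the most abundant of the 9 genes in every library (1405 to 2680 RPKM), followed by Ly6c2 (779 to 1879 RPKM). Cd68 (31.1 to 63.0 RPKM), F13a1 (17.2 to 79.9 RPKM), Ccr2 (13.6 to 49.1 RPKM), Emr1 (12.8 to 31.3 RPKM) and Csf1r (11.4 to 30.2 RPKM) followed, with ranges that overlapped between neighbours in this order, while that of Cd68 lay above that of Csf1r. Fcgr1 (3.85 to 11.9 RPKM) lay below these 5 genes in each library, and Lyz1 (1.08 to 1.92 RPKM) was the lowest. The plot of levels by library shows that the order of the libraries was not the same from gene to gene.

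**Figure D1:**
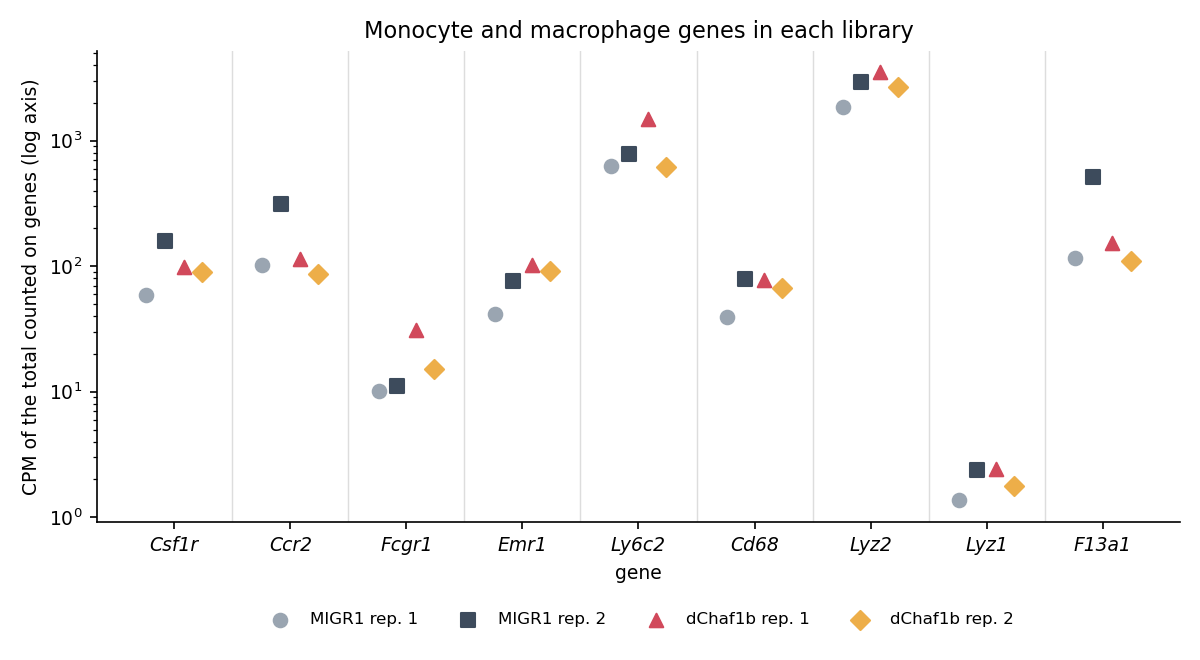
CPM of each gene (log axis) in the 2 MIGR1 and 2 dChaf1b libraries, 1 point per library. F13a1, Ccr2 and Csf1r were highest in MIGR1 replicate 2, Ly6c2 and Fcgr1 stood out in dChaf1b replicate 1, and only Fcgr1 and Emr1 had both dChaf1b points above both MIGR1 points.

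At the thresholds used here, a change of at least 1.5-fold and an adjusted p under 0.05 in edgeR's quasi-likelihood test, 0 of the 9 genes differed between dChaf1b and MIGR1, where 0.376% of the 16500 genes tested did (62 genes). At an unadjusted p under 0.05, 2 of the 9 (Fcgr1 and Emr1, both higher in dChaf1b) passed, against 12.3% of all genes tested. DESeq2 called 0 of the 9 and the edgeR exact test 0 of the 9. The median log2 fold change of the 9 genes was 0.34, and that of all genes tested was -0.03. In 2 of the 9 genes, again Fcgr1 and Emr1, both dChaf1b libraries lay above both controls, an arrangement found in 21.4% of all genes tested, and in 0 of the 9 both lay below, as in 22.9% of all genes tested. The controls also differed between themselves: 4 of the 9 genes were over 2-fold higher in MIGR1 replicate 2 than in MIGR1 replicate 1, against 6.50% of all genes tested.

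**Figure D2:**
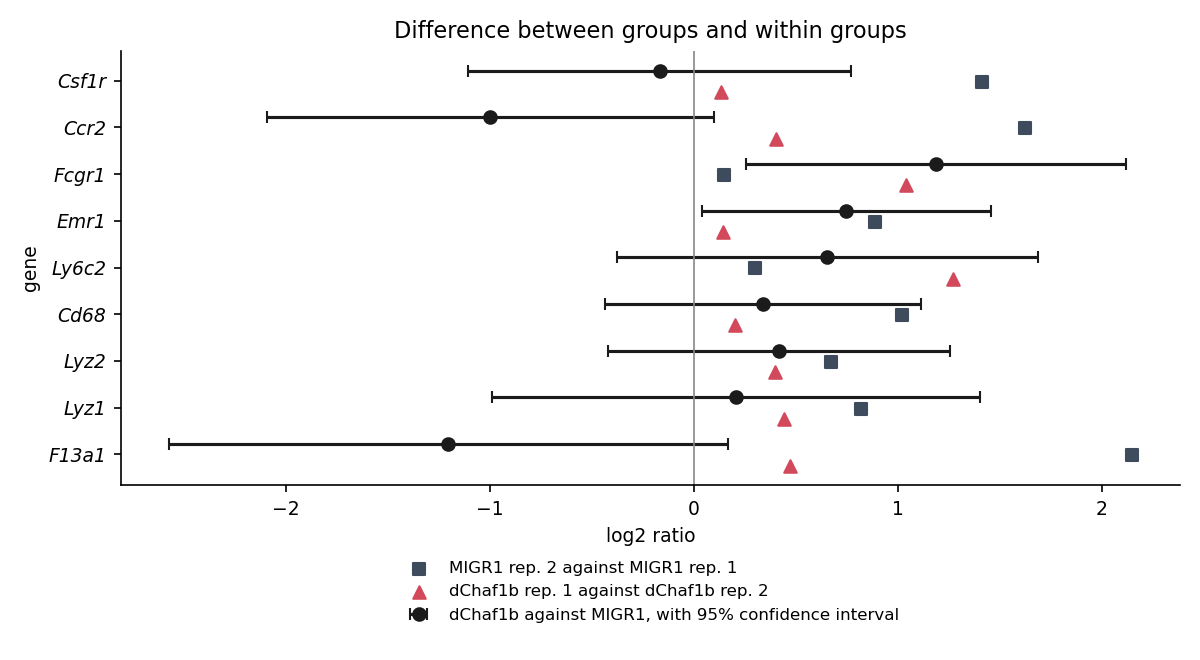
Log2 fold change of dChaf1b against MIGR1 with its 95% confidence interval (circles and bars), beside the log2 ratio of the 2 MIGR1 libraries (squares) and of the 2 dChaf1b libraries (triangles), each written as the ratio named in the key. The control libraries differed by more than the groups did for 7 of the 9 genes, all but Fcgr1 and Ly6c2, with the widest gaps for Csf1r, Ccr2 and F13a1 (1.41, 1.62 and 2.15).

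Csf1r (ENSMUSG00000024621, chr18:61265226-61291803 in NCBIM37, plus strand) encodes the tyrosine kinase receptor for CSF1 and IL-34. It had 59.5 CPM in MIGR1 replicate 1, 158 in MIGR1 replicate 2, 98.6 in dChaf1b replicate 1 and 89.8 in dChaf1b replicate 2. The controls were the lowest and the highest of the 4 libraries, and both dChaf1b libraries lay between them. In edgeR the log2 fold change was -0.17 ± 0.40 (SE), with a 95% confidence interval from -1.11 to 0.77 and an adjusted p of 0.914, and it became 0.68 (adjusted p = 0.752) without MIGR1 replicate 2. Exons of Csf1r overlap those of Hmgxb3, so counts at the overlap could be lost or shared.

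Ccr2 (ENSMUSG00000049103, chr9:124016689-124028296, plus strand) encodes the receptor for CCL2 that lets monocytes leave the marrow. Its levels were 102 and 314 CPM in the MIGR1 libraries and 115 and 86.9 CPM in the dChaf1b libraries. MIGR1 replicate 2 was 3.08-fold above MIGR1 replicate 1, whereas MIGR1 replicate 1 lay between the dChaf1b libraries. The log2 fold change of -0.998 ± 0.47 (SE; adjusted p = 0.464, 95% confidence interval from -2.09 to 0.10) rested on that library: it was 0.0092 (adjusted p = 0.999) without MIGR1 replicate 2 and -1.59 (adjusted p = 0.00333) without MIGR1 replicate 1. In this last fit the spread of all genes was pooled (17452 degrees of freedom, against 7.68 with all 4 libraries), so that a gene's own variation between replicates had almost no weight.

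Fcgr1 (ENSMUSG00000015947, chr3:96086832-96098179, minus strand) encodes CD64, the high-affinity receptor for IgG. It measured 10.1 and 11.1 CPM in the controls and 31.1 and 15.1 CPM in dChaf1b replicates 1 and 2. Both dChaf1b libraries were above both controls, which nearly coincided, but dChaf1b replicate 1 was 2.06-fold above dChaf1b replicate 2. The log2 fold change of 1.18 ± 0.40 (SE) was the largest increase among the 9 genes, with a 95% confidence interval from 0.25 to 2.12 and an adjusted p of 0.286. It was 0.43 (adjusted p = 0.619) without dChaf1b replicate 1, the library with high interferon-stimulated genes, and 1.69 (adjusted p = 0.0302) without dChaf1b replicate 2. The part of that library's interferon-stimulated genes in the Fcgr1 value was not tested.

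Emr1 (ENSMUSG00000004730, chr17:57498109-57622952, plus strand), now also named Adgre1, encodes F4/80, an adhesion G protein-coupled receptor used to mark mouse macrophages. Its levels were 41.5 and 76.9 CPM in the MIGR1 libraries and 102 and 92.2 CPM in the dChaf1b libraries. Both dChaf1b libraries lay above both controls, although the gap from MIGR1 replicate 2 was smaller than the gap between the controls. Between groups, the log2 fold change was 0.75 ± 0.31 (SE), with a 95% confidence interval from 0.04 to 1.46 and an adjusted p of 0.379. Leaving out single libraries moved it between 0.37 (without MIGR1 replicate 1) and 1.24 (without MIGR1 replicate 2), and it did not pass the threshold in any of these fits.

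**Figure D3:**
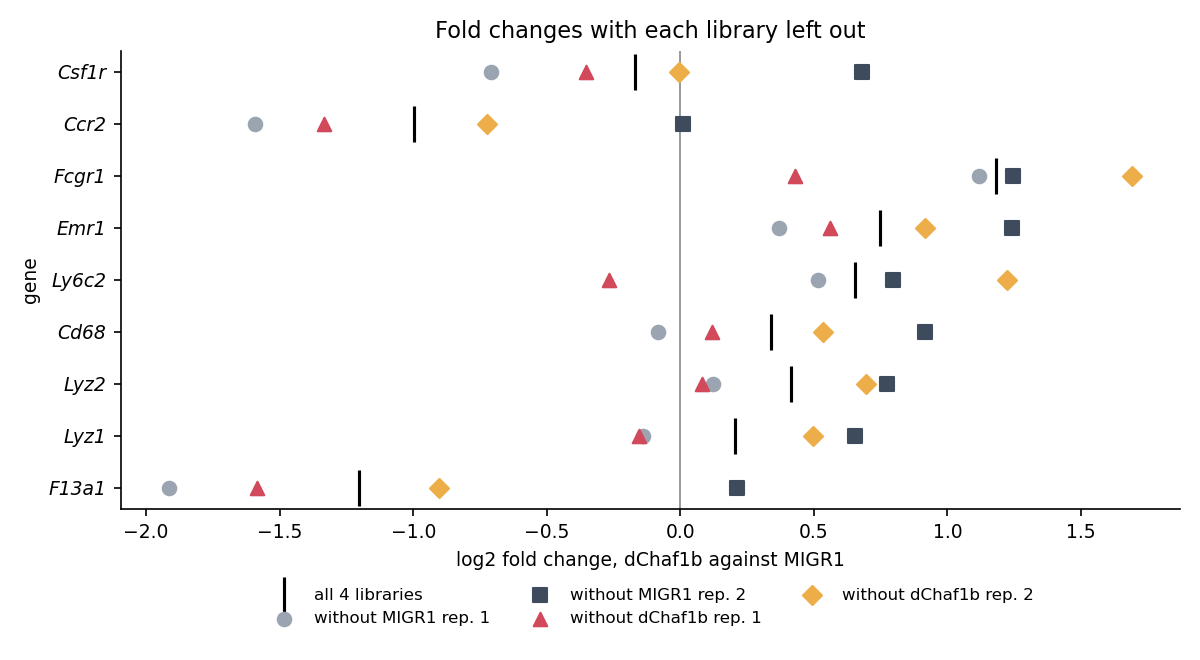
Log2 fold change of dChaf1b against MIGR1 for each gene with all 4 libraries (vertical bars) and with each library left out (points). Leaving out MIGR1 replicate 2 brought Ccr2 to 0.0092 and F13a1 to 0.21, and leaving out dChaf1b replicate 1 brought Fcgr1 to 0.43 and Ly6c2 to -0.27.

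Ly6c2 (ENSMUSG00000022584, chr15:74938590-74942114, minus strand) encodes LY6C, a GPI-anchored surface protein whose high level marks classical monocytes and their precursors. It reached 633 and 778 CPM in the MIGR1 libraries and 1496 and 620 CPM in the dChaf1b libraries. The dChaf1b libraries were the highest and the lowest of the 4, and dChaf1b replicate 1 was 2.41-fold above dChaf1b replicate 2. Over all 4 libraries, the log2 fold change was 0.65 ± 0.44 (SE; 95% confidence interval from -0.38 to 1.69, adjusted p = 0.617), and it was -0.27 (adjusted p = 0.641) without dChaf1b replicate 1. The same library also held the highest level of Ly6a (63.9 CPM, against 3.78 to 11 CPM elsewhere) and of all 6 tested genes of the Ly6 list, which lie in the same cluster as Ly6c2. Among all 16500 genes tested, 2902 were highest in that library.

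The neighbouring Ly6c1 is a near-identical copy of Ly6c2, and 55.38% of the 31-base exonic stretches of Ly6c2 occur elsewhere in the genome, so the division of reads between the pair is uncertain. Their coding sequences of 396 bases differ at 9 bases and the proteins at 7 of 131 residues. The first 150 coding bases, 5′ to 3′ from the NCBIM37 transcripts, are shown because they hold 6 of these differences, in capitals, followed by a run with which a short read could not tell the genes apart.
Ly6c1: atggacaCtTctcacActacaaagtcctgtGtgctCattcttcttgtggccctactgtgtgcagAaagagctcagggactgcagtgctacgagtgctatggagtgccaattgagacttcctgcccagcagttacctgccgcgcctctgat
Ly6c2: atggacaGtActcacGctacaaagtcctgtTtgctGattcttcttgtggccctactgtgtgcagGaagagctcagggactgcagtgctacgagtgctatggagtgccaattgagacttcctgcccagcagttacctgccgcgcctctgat
Of the reads counted on either gene, Ly6c1 took 0.0902% and 0.106% in the MIGR1 libraries and 0.128% and 0.261% in the dChaf1b libraries, with 95% Wilson intervals, which cover counting error only, of 0.0527 to 0.154%, 0.0694 to 0.162%, 0.0954 to 0.171% and 0.183 to 0.373%. Nearly all counts were thus assigned to Ly6c2 in every library, and the interval of dChaf1b replicate 2 lay above the others. With both genes summed into 1, the log2 fold change was 0.65 (adjusted p = 0.616).

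Lyz2 (ENSMUSG00000069516, chr10:116714390-116719377, minus strand) encodes the lysozyme of mouse neutrophils, monocytes and macrophages, an enzyme that cleaves bacterial peptidoglycan. It measured 1845 and 2935 CPM in the MIGR1 libraries and 3518 and 2669 CPM in the dChaf1b libraries. MIGR1 replicate 1 was the lowest library, dChaf1b replicate 2 lay between the controls, and the log2 fold change was 0.42 ± 0.36 (SE; 95% confidence interval from -0.42 to 1.25, adjusted p = 0.711). Lyz1 (ENSMUSG00000069515, chr10:116724852-116729924, minus strand), the adjacent lysozyme gene typical of Paneth cells of the intestine, had 31 and 61 counts in the MIGR1 libraries and 57 and 33 counts in the dChaf1b libraries. These counts overlapped between groups, and the log2 fold change was 0.21 ± 0.51 (SE; adjusted p = 0.918). It was -0.14 without MIGR1 replicate 1 and -0.16 without dChaf1b replicate 1.

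The coding sequences of both lysozymes have 447 bases and differ at 22 of them, and the proteins differ at 12 of 148 residues. Their first 150 coding bases, written in the same way with the 14 differing bases in capitals, show how often a read from this end would meet a difference.
Lyz1: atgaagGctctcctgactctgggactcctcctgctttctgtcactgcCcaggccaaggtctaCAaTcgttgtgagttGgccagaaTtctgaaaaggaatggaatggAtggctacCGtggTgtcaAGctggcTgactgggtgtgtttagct
Lyz2: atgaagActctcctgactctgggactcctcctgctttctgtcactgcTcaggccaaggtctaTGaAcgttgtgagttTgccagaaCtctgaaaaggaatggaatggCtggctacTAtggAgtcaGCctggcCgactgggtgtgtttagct
The longest run without a difference was 118 bases, and 38.85% of the 31-base stretches of the coding sequences were shared. Lyz1 took 0.0669% to 0.0817% of the counts on either gene, with 95% Wilson intervals that overlapped among all 4 libraries (from 0.0476% to 0.105% at the outermost). The Lyz1 share thus did not detectably differ between the libraries at this depth, and whether the few Lyz1 counts are reads from Lyz2 was not tested. Summed into 1, the lysozyme genes had a log2 fold change of 0.42 (adjusted p = 0.711).

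Cd68 (ENSMUSG00000018774, chr11:69477715-69479655, minus strand) encodes macrosialin, a glycoprotein of late endosomes and lysosomes. Its levels were 39.1 and 79.2 CPM in the MIGR1 libraries and 77.9 and 67.7 CPM in the dChaf1b libraries. MIGR1 replicate 1 was the low library, and the other 3 lay close together. The log2 fold change of 0.34 ± 0.33 (SE; 95% confidence interval from -0.44 to 1.11, adjusted p = 0.750) was -0.082 without MIGR1 replicate 1.

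F13a1 (ENSMUSG00000039109, chr13:36959047-37142113, minus strand) encodes the catalytic A subunit of coagulation factor XIII, which in blood is made by monocytes, macrophages and platelet precursors. It had 116 CPM in MIGR1 replicate 1, 515 in MIGR1 replicate 2, 153 in dChaf1b replicate 1 and 111 in dChaf1b replicate 2. The controls differed by 4.42-fold, the widest gap between replicates among the 9 genes, and MIGR1 replicate 1 lay between the dChaf1b libraries. The log2 fold change was -1.20 ± 0.59 (SE; 95% confidence interval from -2.57 to 0.17, adjusted p = 0.479). It was 0.21 (adjusted p = 0.992) without MIGR1 replicate 2 and -1.91 (adjusted p = 0.000283) without MIGR1 replicate 1, again in the fit with pooled spread.

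Among the 98 other genes of the pathway lists that were tested, 1 was called, beside 0.376% of all genes tested. This was Axl, which encodes a receptor tyrosine kinase of macrophages and dendritic cells that binds GAS6 and takes part in the uptake of dying cells. Axl had 7.78 and 11.4 CPM in the MIGR1 libraries and 55.9 and 40.8 CPM in the dChaf1b libraries. Both dChaf1b libraries were far above both controls, and Axl rose by a log2 fold change of 2.38 ± 0.31 (SE; adjusted p = 0.0367). The change was between 2.01 and 2.68 with each library left out and passed the threshold each time, but its adjusted p was 0.0530 with DESeq2 size factors.

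Ligands and signalling partners of the receptors gave 0 calls of 7 genes for CSF1R, 0 of 3 for CCR2 and 0 of 4 for Fc receptors. Of these 14 genes, edgeR gave Csf1 and Fcgr4 an unadjusted p under 0.05, as it did 12.3% of all genes tested. Both dChaf1b libraries lay above both controls in 5 of the 7 genes of the CSF1R list. The same held for 0 of the 3 CCR2 ligands and 3 of the 4 Fc receptor genes, against 21.4% of all genes tested. Csf1, which encodes the CSF1R ligand, had 19.9 and 16.02 CPM in the MIGR1 libraries and 35.1 and 42.2 CPM in the dChaf1b libraries, without overlap between groups (log2 fold change 1.12 ± 0.23 SE, adjusted p = 0.113). Fcgr4, an activating Fc receptor, had 27.0 and 33.0 CPM against 85.1 and 52.5 CPM, also without overlap (log2 fold change 1.25 ± 0.31 SE, adjusted p = 0.163). After these, the largest differences were those of Tyrobp (0.60) and Csf2rb (0.50) in the CSF1R list and of Fcer1g (0.47) and Fcgr3 (0.36) among the Fc receptors, all as log2 fold changes with adjusted p from 0.470 to 0.724. The CCR2 ligands were low and uneven. Ccl2, which attracts monocytes, had 2.02 and 10.2 CPM in the MIGR1 libraries and 19.6 and 3.84 CPM in the dChaf1b libraries, and like Ccl7 and Ccl12 it was higher in MIGR1 replicate 2 and dChaf1b replicate 1 than in the other 2 libraries. The log2 fold changes were 1.04, 0.33 and -0.57 (adjusted p from 0.703 to 0.939).

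Of 10 transcription factors of the lineage, 0 were called. Cebpb, a C/EBP factor that rises with myeloid maturation, had 25.9 and 32.5 CPM in the MIGR1 libraries and 69.2 and 53.9 CPM in the dChaf1b libraries (log2 fold change 1.12 ± 0.26 SE, adjusted p = 0.140), and it was the only one of the 10 with an unadjusted p under 0.05. Maf, a factor of macrophages, gave a log2 fold change of 0.94 ± 0.50 (SE; adjusted p = 0.511). Spi1, whose product PU.1 acts on many of the 9 genes, stayed within 182 to 279 CPM with overlapping groups (log2 fold change 0.31, adjusted p = 0.739).

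The 14 other monocyte genes, with 0 called, split in direction. Cd14, a co-receptor for lipopolysaccharide, had 15.9 and 22.6 CPM in the MIGR1 libraries and 61.3 and 49.7 CPM in the dChaf1b libraries (log2 fold change 1.57 ± 0.27 SE, adjusted p = 0.0758). Vcan, a proteoglycan gene of classical monocytes, had 68.2 and 409 CPM in the controls and 52.8 and 61.2 CPM in dChaf1b (log2 fold change -2.04 ± 0.67 SE, adjusted p = 0.276), so that MIGR1 replicate 2 alone was high, as for F13a1 and Ccr2. Cx3cr1, the fractalkine receptor of non-classical monocytes, had 4.71 and 2.28 CPM against 7.99 and 9.75 CPM (log2 fold change 1.36 ± 0.44 SE, adjusted p = 0.262). In this list 7 of 14 genes were over 2-fold higher in MIGR1 replicate 2 than in MIGR1 replicate 1.

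The macrophage list was more uneven still, with 11 of its 15 tested genes over 2-fold higher in MIGR1 replicate 2 than in MIGR1 replicate 1 and a summed level of 81.4 and 388 CPM in the controls and 322 and 180 CPM in dChaf1b. C1qc, a complement gene of macrophages, had 0.748 and 27.8 CPM in the MIGR1 libraries and 10.2 and 0.541 CPM in the dChaf1b libraries (log2 fold change -1.28 ± 1.46 SE, adjusted p = 0.791). Siglec1, the sialic acid receptor CD169 and itself induced by interferon, was at 9.69 CPM in dChaf1b replicate 1 and at 0.528 to 1.18 CPM elsewhere (log2 fold change 2.73 ± 1.02 SE, adjusted p = 0.332). Of the 18 genes of this list, 15 passed the expression filter, and 2 were at or under 3 counts in each library. These were Timd4 and Cd5l, genes of some resident macrophages. The part of macrophages in the levels of Csf1r, Ccr2 and F13a1 was not tested.

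Lysosome genes gave 0 calls of 14, with a median log2 fold change of 0.17, and 10 of the 14 were highest in dChaf1b replicate 1. The largest differences were those of Grn (0.79 ± 0.28 SE, adjusted p = 0.309), Ctsd (0.75 ± 0.30 SE, adjusted p = 0.374) and Lgmn (0.35 ± 0.59 SE, adjusted p = 0.863), on the log2 scale. Interferon-stimulated genes gave 0 calls of 25 although 22 of them had an unadjusted p under 0.05, against 12.3% of all genes tested. All 25 were highest in dChaf1b replicate 1, the highest library for 2902 of the 16500 genes tested. In 15 of the 25 both dChaf1b libraries lay above both controls, against 21.4% of all genes tested. Ifit3 (1.495, 1.57, 74.4 and 0.596 CPM in MIGR1 replicates 1 and 2 and dChaf1b replicates 1 and 2), Ifi27l2a (139 CPM in dChaf1b replicate 1 and 3.66 to 5.23 CPM elsewhere) and Ifit1 (163 CPM and 4.06 to 6.41 CPM) had adjusted p from 0.232 to 0.286. Of the Ly6 list, 0 of 6 genes were called, and Ly6a, Ly6i and Ly6d had the largest log2 fold changes (2.50, 2.18 and 1.75, adjusted p from 0.273 to 0.335).

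**Figure D4:**
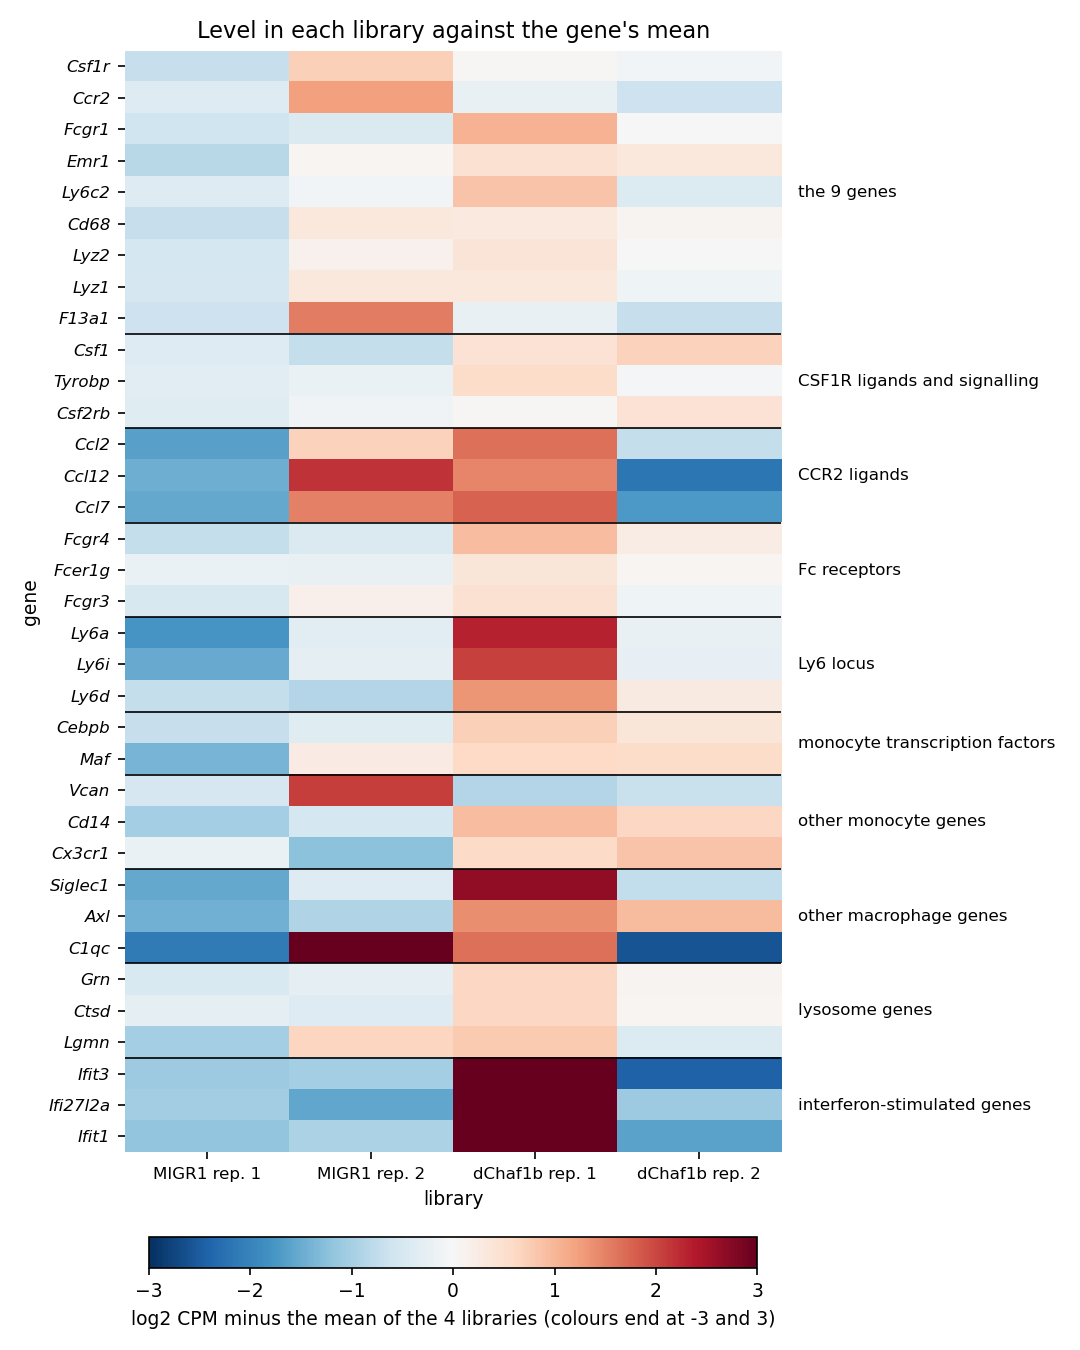
Log2 CPM of each gene in each library minus the mean over the 4 libraries, for the 9 genes and for 2 or 3 of the tested genes with the largest log2 fold change in each list. Vcan and C1qc share the high value in MIGR1 replicate 2 with F13a1 and Ccr2, and the interferon-stimulated and Ly6 genes share the high value in dChaf1b replicate 1 with Ly6c2 and Fcgr1. Csf1, Cebpb, Cd14, Fcgr4 and Axl are among the genes with both dChaf1b libraries above both controls, an arrangement found in 21.4% of all genes tested.

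By library, 5 of the 9 genes were highest in dChaf1b replicate 1 (Fcgr1, Emr1, Ly6c2, Lyz1 and Lyz2) and 4 in MIGR1 replicate 2 (Csf1r, Ccr2, F13a1 and Cd68). Of the 16500 genes tested, 2902 were highest in dChaf1b replicate 1 and 3431 in MIGR1 replicate 2. The margins between these libraries were narrow for Lyz1 (2.42 against 2.40 CPM) and for Cd68 (77.9 against 79.2 CPM), and with the TMM factors used in the fit Cd68 too was highest in dChaf1b replicate 1. The lowest level lay in MIGR1 replicate 1 for 6 genes and in dChaf1b replicate 2 for 3 (Ly6c2, Ccr2 and F13a1). Over all genes tested, 3451 were lowest in MIGR1 replicate 1 and 2774 in dChaf1b replicate 2. Summed, the 9 genes had 2848 and 4869 CPM in the MIGR1 libraries and 5594 and 3753 CPM in the dChaf1b libraries, a sum that Lyz2 dominates. The summed dendritic cell markers ran in the same order of libraries (157 and 818 CPM in the controls, 1084 and 443 CPM in dChaf1b). Most of their counts are of the antigen presentation genes Cd74, H2-Aa and H2-Ab1. The summed neutrophil markers ran in this order too, with 50128, 57499, 69592 and 51772 CPM. Most of that sum is of S100a8, S100a9 and Ngp, and among the neutrophil markers only S100a9 and Camp ran in this order singly. Elane had 1739 and 2369 CPM in the MIGR1 libraries and 1229 and 751 CPM in the dChaf1b libraries. The progenitor, mast cell and basophil, B cell, T and NK cell, erythroid and megakaryocyte sums ran in other orders. In the same sequence of libraries, the progenitor markers had 919, 876, 631 and 829 CPM. The megakaryocyte markers had 101, 100, 153 and 267 CPM. The other 4 of the 7 dendritic cell markers, Flt3, Ccr7, Itgax and Siglech, had both dChaf1b libraries above both controls, against 21.4% of all genes tested. So did 6 of 6 B cell and 5 of 6 megakaryocyte markers. In the remaining lists tested, 2 of 8 neutrophil, 1 of 6 progenitor, 1 of 6 erythroid and 0 of 6 mast cell and basophil markers did. Flt3, a receptor of early progenitors as well as of dendritic cells, was the 1 marker of the list called, beside 0.376% of all genes tested. It had 4.66 and 5.31 CPM against 19.3 and 22.7 CPM (log2 fold change 2.09 ± 0.28 SE, adjusted p = 0.0383). The adjusted p of Flt3 was 0.0503 with DESeq2 size factors and 0.0585 with library totals only. The part of these other cell types in the levels of the 9 genes was not tested.

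A search for promoter motifs did not cover Csf1r and Emr1, so nothing is said here of motifs in these genes. RefSeq promoter windows (GRCm38.p6), from 250 bases before the start of transcription, were used for the other 7 of the 9 genes. They were searched on both strands for 4 motifs: the interferon-gamma activated site (TTCNNNGAA, its own reverse complement), the interferon-stimulated response element (GAAA, any 2 bases, GAAA), the PU.1 motif (GAGGAAGT) and a C/EBP motif (TTGCNNAA). Of 32851 windows in the genome, 8.30%, 3.44%, 3.20% and 10.8% held them. Fcgr1 held the activated site, starting 109 bases before its start, Lyz1 and Cd68 held the C/EBP motif, and 0 of the 7 held the response element. Ly6c2 and F13a1 held the PU.1 motif. In F13a1 the match lay after the start, and Ly6c2 held matches both before and after it. No match of 1 motif overlapped a match of another in these genes. The upstream part of 2 windows is shown, with the match in capitals, because Fcgr1 and Ly6c2 shared the high level in dChaf1b replicate 1. They lie at chr3:96293970-96294219 and chr15:75111972-75112221, both minus strand.
Fcgr1: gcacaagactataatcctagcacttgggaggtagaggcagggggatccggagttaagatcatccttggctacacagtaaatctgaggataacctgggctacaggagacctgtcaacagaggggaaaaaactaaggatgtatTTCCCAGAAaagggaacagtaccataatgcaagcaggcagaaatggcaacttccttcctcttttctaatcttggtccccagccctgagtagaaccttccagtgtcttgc
Ly6c2: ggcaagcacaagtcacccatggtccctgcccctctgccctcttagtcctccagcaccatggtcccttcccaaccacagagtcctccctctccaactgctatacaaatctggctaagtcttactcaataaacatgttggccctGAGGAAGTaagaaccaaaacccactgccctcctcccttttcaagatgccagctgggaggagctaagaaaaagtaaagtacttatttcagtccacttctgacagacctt
A match describes the letters alone, and binding at these positions was not measured here.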

How the data were processed

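RNA-seq was analysed from 4 libraries of sorted HSPCs, 2 per group, grouped by their labels. The authors used STAR to align reads from ribosome-depleted total RNA, prepared with a stranded kit, to mm9, and HTSeq-count to count them. Raw counts per gene were deposited, with 1 table for each library. The annotation and the strand setting of the counting are not given in the sources used here. The HTSeq summary entries, which name no gene, held 49.73% to 58.19% of all counts in the tables and were left out. Depth on genes ranged from 18468637 to 25409926 counts. The Wilson intervals and the floors cover counting error only.

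From the counts, CPM were computed on the total counted on genes, and RPKM with exon lengths of NCBIM37, the Ensembl name of mm9. Of 43629 identifiers, 33068 had a name there. Spi1 was matched through a RefSeq synonym. Differential expression was computed in R 4.3.3 with edgeR 4.0.16 (limma 3.58.1): expression filter with a minimum count of 10, 16500 genes, TMM factors from 0.926 to 1.06, glmQLFit and glmQLFTest without a covariate, and Benjamini-Hochberg adjustment over all genes tested. Calls needed at least 1.5-fold and an adjusted p under 0.05, the thresholds of the study. The biological coefficient of variation was 0.276. DESeq2 1.42.0, other scalings, no filter, no fold threshold, a replicate block, each library left out and summed paralogs were alternatives. The fit was tested on simulated data.

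The 9 genes and the lists were chosen with earlier results of these data known. The genes named are the 9, Chaf1b, each called gene of the pathway lists and the 3 tested genes with the largest absolute log2 fold change in each list; Spi1, Xist, Kit, Timd4, Cd5l and the dendritic cell markers were named after their values were seen, and 1 gene that the rule names is not reported here. Since the labels do not say that replicates came from separate mice, p-values measure the spread between these libraries, which may be technical between the MIGR1 libraries. The dChaf1b libraries, with counts of female cells in replicate 1 and of male cells in replicate 2, did not come from the same mouse. Sequences come from the NCBIM37 transcripts and from RefSeq promoters, and coding sequences were compared without gaps. The share of 31-base exonic stretches found elsewhere was computed from the NCBIM37 genome.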

Additional observations from a re-analysis of the deposited data

How the results depend on the processing

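Over 93 repeats of the 9 log2 fold changes, 80 kept their direction and their side of the threshold, 7 changed direction and 6 came to pass the threshold. The changes of direction all came with a library left out: without MIGR1 replicate 2 for Csf1r (0.68), Ccr2 (0.0092) and F13a1 (0.21), without MIGR1 replicate 1 for Cd68 (-0.082) and Lyz1 (-0.14), and without dChaf1b replicate 1 for Ly6c2 (-0.27) and Lyz1 (-0.16). With each library left out, the values ranged from -0.27 to 1.22 for Ly6c2, from -0.16 to 0.65 for Lyz1, from -0.71 to 0.68 for Csf1r, from -1.59 to 0.0092 for Ccr2, from -1.91 to 0.21 for F13a1, from 0.43 to 1.69 for Fcgr1 and from -0.082 to 0.92 for Cd68. The number of the 9 genes called was 3 without the low-count filter (Ccr2 -0.98, F13a1 -1.19 and Fcgr1 1.23) and from 0 to 2 with a library left out, where a lone library is assumed to vary like the others, and 0 under each other alternative. The number of all genes called, 62, became 28 with DESeq2 size factors, 31 with library totals only, 887 without the filter, 483 with DESeq2, 553 with the edgeR exact test and 131 to 366 with a library left out. The number of other pathway genes called, 1, became 0 with DESeq2 size factors, 38 without the filter, 7 with DESeq2, 17 with the exact test and from 1 to 35 with a library left out. Some quasi-likelihood fits with many calls had more degrees of freedom per gene, 62798 without the filter, 17452 without MIGR1 replicate 1 and 267 without MIGR1 replicate 2, against 7.68, though without dChaf1b replicate 2 the 366 calls came with 6.84, and the cause was not tested there.

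With the replicate block, 0 of the 9 genes, 14 of all genes and 0 of the other pathway genes were called, and the adjusted p became 0.100 for Axl, 0.0960 for Flt3 and 0.0592 for Chaf1b. Replicate numbers were not taken to pair the libraries: only 2 pairs exist, and the correlation of their deviations from the group means was 0.0133. With 2 libraries per group the 95% confidence intervals were wide, as that of Ly6c2 from -0.38 to 1.69, so differences smaller than these intervals could not be resolved.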
